A study of Mus musculus with 16 samples.

Results

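The constitutive proteasome genes were examined in the mouse small intestine after loss of Cul4b, the gene of a cullin scaffold of ubiquitin ligases. The genes were taken by name from the 3 count tables, as protein-coding rows whose symbol begins with Psma, Psmb, Psmc or Psmd followed by a digit, leaving out the immunoproteasome subunits Psmb8, Psmb9 and Psmb10. This gave 37 genes of the 52525 listed in all 3 tables. They hold 16 genes of the core particle, 17 of the regulatory particle, 3 base assembly chaperones (Psmd5, Psmd9 and Psmd10) and Psmc3ip, which shares only its name and acts in meiotic recombination.

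RNA-seq was analysed in 3 experiments on C57BL/6 mice, whose fn/Y genotype marks them as male. In the crypt experiment, 4 KO IEC libraries (pVillin-Cre; Cul4b fn/Y) were compared with 4 WT libraries (Cul4b fn/Y without Cre). In the KO IEC organoid experiment, 2 libraries of the same genotype were compared with 2 WT libraries. In the KO CAG organoid experiment, 2 libraries (CAG-CreERT2; Cul4b fn/Y, with Cre induced by hydroxytamoxifen in culture) were compared with 2 WT libraries, WT being defined in the study as Cul4b fn/Y. Most experiments of the study used animals aged 8 to 16 weeks. Whether the WT organoids of the KO CAG experiment carried CreERT2 or were given hydroxytamoxifen is not given in the sources used here. The Villin promoter drives Cre in the intestinal epithelium, so other cells of a crypt preparation keep Cul4b, and the CAG promoter is active in most cell types. Crypts were freed with EDTA after the villi had been scraped off and passed a 70 µm strainer. The study's methods call the libraries of a group biological replicates, but do not say whether the organoid libraries came from separate animals or cultures.

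Total counts per library ranged from 7348191 to 16881395. Cul4b, given in CPM (read counts scaled to a common library size, here with TMM), lay at 31.7 to 38.3 in WT crypts and 0.848 to 2.21 in KO IEC crypts, at 73.2 to 83.2 and 1.69 to 1.76 in WT and KO IEC organoids, and at 70.1 to 72.9 and 3.34 to 5.19 in WT and KO CAG organoids. Every library matched its label by this gene. The epithelial markers Vil1, Epcam, Cdx1, Cdx2 and Cdh17 were detected in all libraries, while in the organoids 5 of 6 immune markers, Ptprc among them, and all 5 stromal markers stayed under 1 CPM. The crypt libraries differed in mitochondrial ribosomal RNA. WT 2 and WT 3 held 2840 and 2873 CPM of it, WT 4 and KO 4 held 834 and 1078 CPM, and the other 4 crypt libraries held 18.9 to 25.2 CPM. Crypt results are therefore also given without WT 2 and WT 3 and within the libraries of like content.

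The proteasome degrades proteins that carry ubiquitin chains, the marks that cullin ligases help to attach. Its core particle is a barrel of outer alpha rings (Psma genes), which form the gate, and inner beta rings (Psmb genes), of which Psmb5, Psmb6 and Psmb7 carry the constitutive active sites. The regulatory particle caps the barrel. Its base holds a ring of ATPases (Psmc genes) that unfold the substrate, the scaffold subunits Psmd1 and Psmd2 and the ubiquitin receptor Psmd4, and its lid (the remaining Psmd genes here) includes the deubiquitinase Psmd14. Proteasome genes are expressed in all cells and are known to be raised together by the transcription factor Nfe2l1 when proteolysis is impaired, while assembly chaperones such as Psmg1, Psmg2 and Pomp help to build the core.

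Promoter sequences are given first, since the 2 particles differed in the letters they held. RefSeq promoter sequences (GRCm38.p6, 250 bases before to 50 after the gene start) were matched by symbol to 30 of the 37 genes. The ETS core CCGGAAG, searched on both strands, occurred in 9 of the 14 regulatory genes with a sequence (64.3%) and in 1 of 12 core genes (8.33%). It occurred in 8.86% of all 32851 promoter entries and in 11.6% of the 21263 entries of protein-coding genes. A gene was counted when any of its entries held the motif, while the shares over all promoters count single entries. It was found in Psmc1, Psmc2, Psmc6, Psmd2, Psmd4, Psmd6, Psmd11, Psmd12 and Psmd13, and in the core gene Psma6. A match describes the letters only. The following windows of 30 bases, written 5′ to 3′ along the gene, show the motif in capitals in the 4 regulatory genes with the smallest p in the KO CAG organoids among those that hold it. A match on the opposite strand reads CTTCCGG.
Psmd4 (minus strand, chr3:95042721-95042750): ttacagctgttCCGGAAGctgctgcgaagg
Psmd2 (plus strand, chr16:20651615-20651644): tccgcagggcgCTTCCGGtctggaggacaa
Psmc1 (plus strand, chr12:100110163-100110192): tggtggatgcaCTTCCGGcggtggcgattt
Psmd13 (plus strand, chr7:140882377-140882406): cgcccgcggtgCCGGAAGtgagcgagcact

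The antioxidant response core TGACNNNGC, the letters bound by Nfe2l1 and Nfe2l2, occurred in 2 of 12 core genes (16.7%) and 2 of 14 regulatory genes (14.3%). The share was 12.4% of all promoter entries and 13.0% of protein-coding entries. The core genes that held it were the catalytic subunits Psmb5 and Psmb6, shown here with the motif in capitals because both are followed through the experiments.
Psmb5 (minus strand, chr14:54618023-54618052): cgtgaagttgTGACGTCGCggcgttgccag
Psmb6 (plus strand, chr11:70525338-70525367): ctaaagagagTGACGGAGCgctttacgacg
The regulatory genes with these letters were Psmc6 and Psmd12. The CCAAT box was found in 7 of 12 core genes (58.3%) and 4 of 14 regulatory genes (28.6%), compared with 37.4% of all entries and 38.2% of protein-coding entries. The palindrome of nuclear respiratory factor was found in Psma2 alone among the 26 core and regulatory genes searched, compared with 0.971% of all entries and 1.33% of protein-coding entries.

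In WT crypts, core genes lay higher per length than regulatory genes. Levels are given in TPM (counts per gene length, scaled to the same total in each library). The median was 173 TPM over all 16 core genes and 106 TPM over the 17 regulatory genes. The core median includes Psma8 and Psmb11, which were barely or not detected and pull it down. The highest core genes were Psma6 at 370 ± 39.0 TPM (SD, n = 4), Psmb1 at 363 ± 21.8 TPM and Psmb5 at 296 ± 23.6 TPM. The lowest of those detected were Psmb7 at 64.6 ± 8.13 TPM, Psma3 at 70.3 ± 7.65 TPM and Psma2 at 93.4 ± 4.85 TPM. Among regulatory genes, the ATPase genes Psmc5 (282 ± 30.8 TPM), Psmc1 (237 ± 19.3 TPM) and Psmc3 (182 ± 24.5 TPM) were highest, and Psmd11 (37.7 ± 6.62 TPM), Psmd1 (48.7 ± 4.61 TPM) and Psmc2 (56.3 ± 3.98 TPM) were lowest. These levels divide by the gene lengths of the tables, which cover all exons of a gene, so genes with long rare exons appear lower. The lengths listed for Psma7, Psmb1, Psmb5, Psmb11 and Psmc6 differ between tables, and levels were not compared across them. The length of Psmb1 was 1036 bases for crypts and 4595 for IEC organoids, so its place among the highest core genes depends on the shorter length. Psma8, a testis subunit, and Psmb11, the thymus subunit, held 0 to 3 counts in every library and were removed by the filter on low counts. The other 35 genes were tested in each experiment. The 4 listed pseudogenes of Psmb5, Psmb6 and Psmb7 held at most 2 counts. Exons of 10 of the 37 genes overlap another annotated gene in GENCODE M21, with Nek6 over Psmb7, Sirt3 over Psmd13, Slc39a13 over Psmc3 and Mlx over Psmc3ip as the expressed partners on the opposite strand. Whether counting used the strand is not given in the sources used here, so the counts of these pairs may be affected by the overlap.

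In KO IEC crypts, proteasome genes lay below WT by a small margin, and none of the 35 passed the threshold. All 14 core genes tested and 16 of 17 regulatory genes had a log2 fold change (KO minus WT) below 0, with Psmc6 at 0.06 as the exception. The median was −0.25 for core genes, −0.17 for regulatory genes and −0.01 over all 13427 genes tested, of which 51.1% lay below 0. By the quasi-likelihood test of edgeR, 0 genes of either particle were called at an adjusted p under 0.05, compared with 6.96% of all genes tested, 2.66% lower and 4.30% higher. That share rests on single libraries: the 934 genes called became 20 without WT 1, 3 without WT 2, 11 without WT 3 and 1864 without WT 4. They became 2468 without KO 1, 2 without KO 2, 2 without KO 3 and 513 without KO 4. At an unadjusted p under 0.05, 10 core and 4 regulatory genes were lower, compared with 14.6% of all genes, and the Wald test of DESeq2 called 5 core genes and 1 regulatory gene lower, compared with 7.51% of the genes to which it gave an adjusted p. In bulk RNA, fewer cells of a type and less RNA per cell cannot be told apart.

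Psmb6, the caspase-like catalytic subunit of the core, had the smallest p in crypts. Its CPM was 202, 190.1, 189 and 151 in the WT libraries and 144, 139, 136 and 138 in the KO libraries. The groups did not overlap, and WT 4 lay nearest to the KO libraries. The log2 fold change was −0.40 (SE 0.10, adjusted p = 0.0521, edgeR), and the exact two-sided permutation p was 0.0286, the smallest that 4 against 4 libraries can give. Psma7, an alpha ring subunit, gave 224, 223, 227 and 186 CPM in WT and 175, 165, 154 and 175 CPM in KO crypts, again without overlap. Its log2 fold change was −0.36 (SE 0.10, adjusted p = 0.0566, edgeR).

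Psmb5, the chymotrypsin-like subunit and the target of proteasome inhibitors such as bortezomib, lay at 112, 111, 111 and 104 CPM in WT and at 94.8, 83.4, 74.7 and 92.8 CPM in KO crypts. The log2 fold change was −0.35 (SE 0.10, adjusted p = 0.0578, edgeR) and the groups were apart. Psmb7, the trypsin-like subunit, differed from the other catalytic subunits in that its groups overlapped. It lay at 84.8, 86.2, 88.3 and 120.2 CPM in WT and 88.2, 80.9, 67.2 and 105 CPM in KO crypts, with a log2 fold change of −0.15 (SE 0.16, adjusted p = 0.534, edgeR). WT 4 and KO 4 were the high libraries of their groups, and without WT 4 the log2 fold change was 0.0027.

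Of the regulatory genes, the ATPase Psmc3 and the ubiquitin receptor Psmd4 had the smallest p in crypts. Psmc3 lay at 204, 217, 212 and 176 CPM in WT and 179, 171, 156 and 161 CPM in KO, so that KO 1 overlapped WT 4 (log2 fold change −0.28, SE 0.10, adjusted p = 0.0953, edgeR). Psmd4 lay at 119, 108, 113 and 113 CPM in WT and 96.8, 93.0, 98.3 and 103 CPM in KO, without overlap (log2 fold change −0.21, SE 0.08, adjusted p = 0.101, edgeR). The deubiquitinase Psmd14 overlapped between groups, at 92.9, 105, 102 and 96.6 CPM in WT and 99.997, 94.1, 87.3 and 90.3 CPM in KO. Every KO crypt library lay below every WT library for 9 of 14 core genes and 3 of 17 regulatory genes, compared with 8.79% of all genes tested.

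Without WT 2 and WT 3, the crypt medians were −0.21 for core and −0.14 for regulatory genes, with 14 of 14 and 15 of 17 genes below 0 and 0 called, where only 1 gene (0.00715%) of all tested was called (alternative chosen after seeing the data). In a fit with a term for low, middle or high mitochondrial ribosomal RNA, the medians were −0.20 and −0.16, with 0 of the proteasome genes and 2 of all genes called. Within the libraries low in mitochondrial ribosomal RNA (WT 1 against KO 1, KO 2 and KO 3), the medians were −0.22 and −0.23, and within the pair WT 4 and KO 4 they were −0.16 and −0.11. Cell type markers moved as well. The summed CPM of 4 stem cell markers ranged from 1388 to 2224 in WT and 863 to 1396 in KO crypts, with 2 of 4 called lower. That of 4 proliferation markers ranged from 978 to 1310 in WT and 756 to 1270 in KO. Their log2 fold changes lay below 0 for 4 of 4, with 0 called. The summed CPM of 7 enterocyte markers ranged from 1901 to 8201 in WT and 6735 to 15410 in KO, with 0 of 7 called by edgeR. That of 6 immune markers ranged from 278 to 789 in WT and 162 to 641 in KO. The part of cell composition in the proteasome values was not tested.

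**Figure D1:**
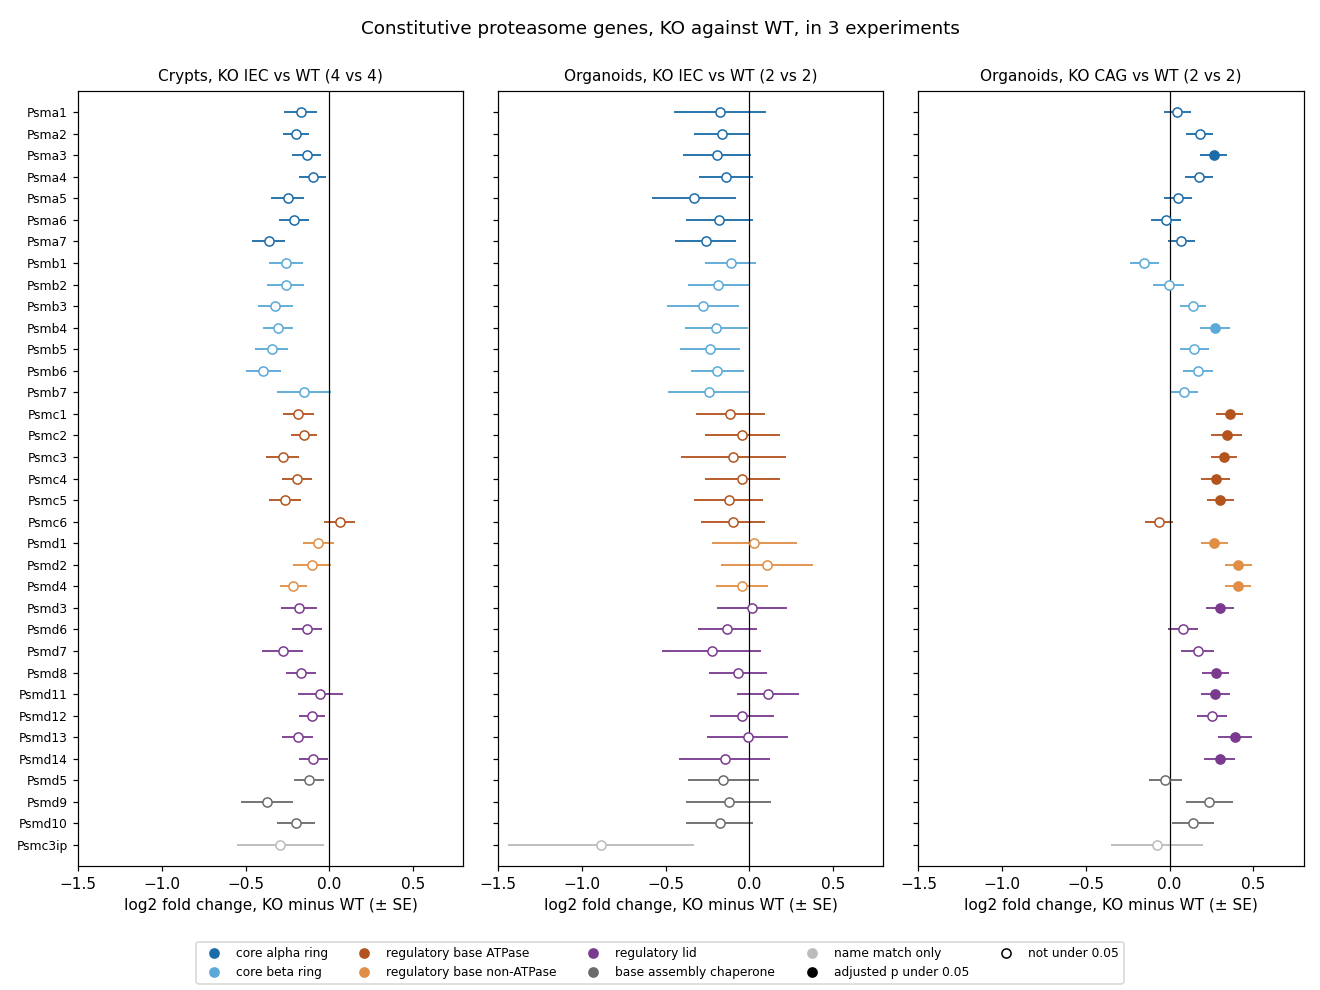
Log2 fold change (KO minus WT, points, with the SE as bars) of the 35 tested genes, listed by their place in the proteasome, in crypts (4 against 4 libraries), KO IEC organoids and KO CAG organoids (2 against 2 each). Filled points have an adjusted p under 0.05 by edgeR. Points lie left of 0 for 34 of 35 genes in crypts, and the filled points, 2 core and 13 regulatory genes, lie right of 0 in KO CAG organoids.

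In KO IEC organoids, no proteasome gene passed the threshold, and the KO libraries differed from each other more than the WT libraries did (chi-square per degree of freedom over all genes 107.5 for the KO pair and 25.4 for the WT pair). The 14 core genes tested all had log2 fold changes below 0, with a median of −0.19, while 13 of 17 regulatory genes did, with a median of −0.05, compared with −0.01 and 51.2% below 0 over the 13938 genes tested. By edgeR 0 genes of either particle were called (0.00717% of all genes), 0 had an unadjusted p under 0.05 (4.66% of all genes), and DESeq2 called 0 (0.198% of all genes in either direction). Both KO libraries lay below both WT libraries for 5 core genes, Psma2, Psma7, Psmb1, Psmb5 and Psmb6, and for 0 regulatory genes, compared with 19.4% of all genes.

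Psma7 had the smallest p of the core genes here, with 189 and 172 CPM in WT and 167 and 134 CPM in KO IEC organoids (log2 fold change −0.26, SE 0.18, adjusted p = 0.856, edgeR). Psma5, another alpha subunit, followed with 108 and 94.6 CPM in WT and 97.7 and 63.5 CPM in KO (log2 fold change −0.33, SE 0.25, adjusted p = 0.856, edgeR). For both genes KO 2 was the lowest library, and KO 1 lay within or just under the WT range. The catalytic subunits showed the same order of the KO libraries. Psmb5 lay at 112 and 99.1 CPM in WT and 98.7 and 80.6 CPM in KO, Psmb6 at 155 and 136 CPM in WT and 129 and 126 CPM in KO, and Psmb7 at 94.9 and 81.8 CPM in WT and 89.5 and 59.7 CPM in KO.

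Regulatory genes of KO IEC organoids lay on both sides of WT. Psmd7, a lid subunit that pairs with Psmd14, gave 119 and 112 CPM in WT, and its KO libraries lay at 126 and 71.4 CPM, above and below them (log2 fold change −0.22, SE 0.30, adjusted p = 0.874, edgeR). Psmd14 likewise gave 111 and 97.02 CPM in WT and 116 and 71.2 CPM in KO. Psmd6, a lid subunit, gave 105 and 92.1 CPM in WT and 98.2 and 81.5 CPM in KO, and Psmd4 gave 126 and 117 CPM in WT and 125 and 111 CPM in KO. Without KO 2, the medians were −0.06 for core and 0.16 for regulatory genes, and without WT 1 they were −0.13 and 0.03. Without KO 1 they were −0.40 and −0.31, and 2 core genes and 1 regulatory gene were called lower, with 9.16% of all genes called lower in that fit. The median of the regulatory genes changed sign with the library left out. The summed stem cell markers ranged from 2300.0 to 3446 CPM in WT and 333 to 1422 CPM in KO organoids, with 0 of 4 called. Those of proliferation ranged from 1019 to 1027 CPM in WT and 412 to 1161 CPM in KO, with 0 of 4 called. Median log2 fold changes were 1.38 for goblet, 0.70 for enteroendocrine, 0.26 for enterocyte and −0.68 for Paneth markers, with 0 called. Their part in the proteasome values was not tested.

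In KO CAG organoids, genes of the regulatory particle rose. By edgeR 13 of 17 were called higher and 0 lower, while 2 of 14 core genes were called higher and 0 lower, compared with 18.1% higher and 13.4% lower among the 13598 genes tested. The median log2 fold change was 0.30 for regulatory genes, 0.11 for core genes and 0.00 over all genes. Of the regulatory genes 16 of 17 lay above 0 and of the core genes 11 of 14, compared with 50.1% of all genes, and both KO libraries lay above both WT libraries for 15 regulatory and 8 core genes, compared with 35.5% of all genes. Of the ATPases 5 of 6 rose, of the other base subunits 3 of 3, and of the lid subunits 5 of 8. All changes stayed under 2-fold. Libraries of a group lay closer together here than in the other experiments. Their chi-square per degree of freedom over all genes was 3.99 for the WT pair and 7.08 for the KO pair. It was 25.4 and 107.5 in IEC organoids and 19.2 to 69.5 for pairs within a group in crypts. Numbers of calls therefore do not compare the size of the KO effect between experiments.

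Psmd4, the ubiquitin receptor, had the smallest p. Its CPM was 101 and 104 in the WT libraries and 135 and 136 in the KO libraries, a log2 fold change of 0.41 (SE 0.08, adjusted p = 0.00332, edgeR). Psmd2, the scaffold on which ubiquitin-binding partners dock, lay at 218 and 219 CPM in WT and 282 and 299 CPM in KO (log2 fold change 0.41, SE 0.08, adjusted p = 0.00438, edgeR). For both genes the WT libraries lay close together and the KO libraries clearly above them. The other scaffold, Psmd1, rose by less, with a log2 fold change of 0.27 (adjusted p = 0.0282, edgeR).

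The ATPases of the base rose by like amounts, except for Psmc6. Psmc1 lay at 135 and 136 CPM in WT and 173 and 175 CPM in KO (log2 fold change 0.36, SE 0.08, adjusted p = 0.00662, edgeR). The log2 fold change was 0.34 for Psmc2, 0.32 for Psmc3, 0.27 for Psmc4 and 0.30 for Psmc5. Psmc6 overlapped between groups, at 104 and 108 CPM in WT and 97.4 and 105 CPM in KO (log2 fold change −0.06, SE 0.08, adjusted p = 0.593, edgeR).

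Of the lid, Psmd13 gave 71.1 and 85.8 CPM in WT and 102 and 103 CPM in KO, a log2 fold change of 0.39 (SE 0.10, adjusted p = 0.0137, edgeR). The deubiquitinase Psmd14 gave 78.9 and 75.8 CPM in WT and 88.6 and 101 CPM in KO, a log2 fold change of 0.30 (SE 0.09, adjusted p = 0.0324, edgeR). The log2 fold changes were 0.30 for Psmd3, 0.27 for Psmd8 and 0.27 for Psmd11, all called. Psmd12 just missed the threshold at 0.25 (adjusted p = 0.0563, edgeR), and Psmd7 and Psmd6 gave 0.17 and 0.08 with adjusted p of 0.211 and 0.513. The chaperones of the base gave −0.03 for Psmd5, 0.14 for Psmd10 and 0.24 for Psmd9, with 0 of 3 called. Psmc3ip gave −0.07 and was not called in any experiment.

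Of the core genes, Psma3 and Psmb4 rose in KO CAG organoids. Psma3, an alpha ring subunit, lay at 83.5 and 83.6 CPM in WT and 99.4 and 101 CPM in KO (log2 fold change 0.26, SE 0.08, adjusted p = 0.0297, edgeR). Psmb4, a beta subunit without an active site, lay at 156 and 179 CPM in WT and 203 and 202 CPM in KO (log2 fold change 0.27, SE 0.09, adjusted p = 0.0413, edgeR). None of the catalytic subunits passed the test. Psmb5 gave 78.9 and 88.5 CPM in WT and 90.8 and 94.5 CPM in KO, and Psmb6 gave 128 and 117 CPM in WT and 131 and 144 CPM in KO, both without overlap. Psmb7 gave 87.9 and 95.4 CPM in WT and 95.2 and 99.2 CPM in KO, with overlap. Psmb1 lay lowest, at −0.15 (SE 0.09, adjusted p = 0.209, edgeR).

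The number of calls in KO CAG organoids depended on single libraries and on the test. Without WT 1, 0 regulatory genes were called, without WT 2, 2 were, and without KO 1, 15 were, with 11.8%, 12.2% and 15.9% of all genes called higher in these fits, while the regulatory median stayed between 0.24 and 0.32. DESeq2 called 6 regulatory and 0 core genes higher, with 12.5% of all genes called higher. Cell type markers differed between the groups too. Called higher in KO CAG organoids were 6 of 7 enterocyte markers (summed CPM 3950 to 4353 in WT and 9217 to 11581 in KO), 4 of 4 Paneth, 4 of 4 goblet and 3 of 3 enteroendocrine markers. Called lower were 2 of 4 stem cell and 2 of 4 proliferation markers (summed proliferation markers 1120 to 1149 CPM in WT and 693 to 916 CPM in KO). The part of this shift in the proteasome values was not tested.

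**Figure D2:**
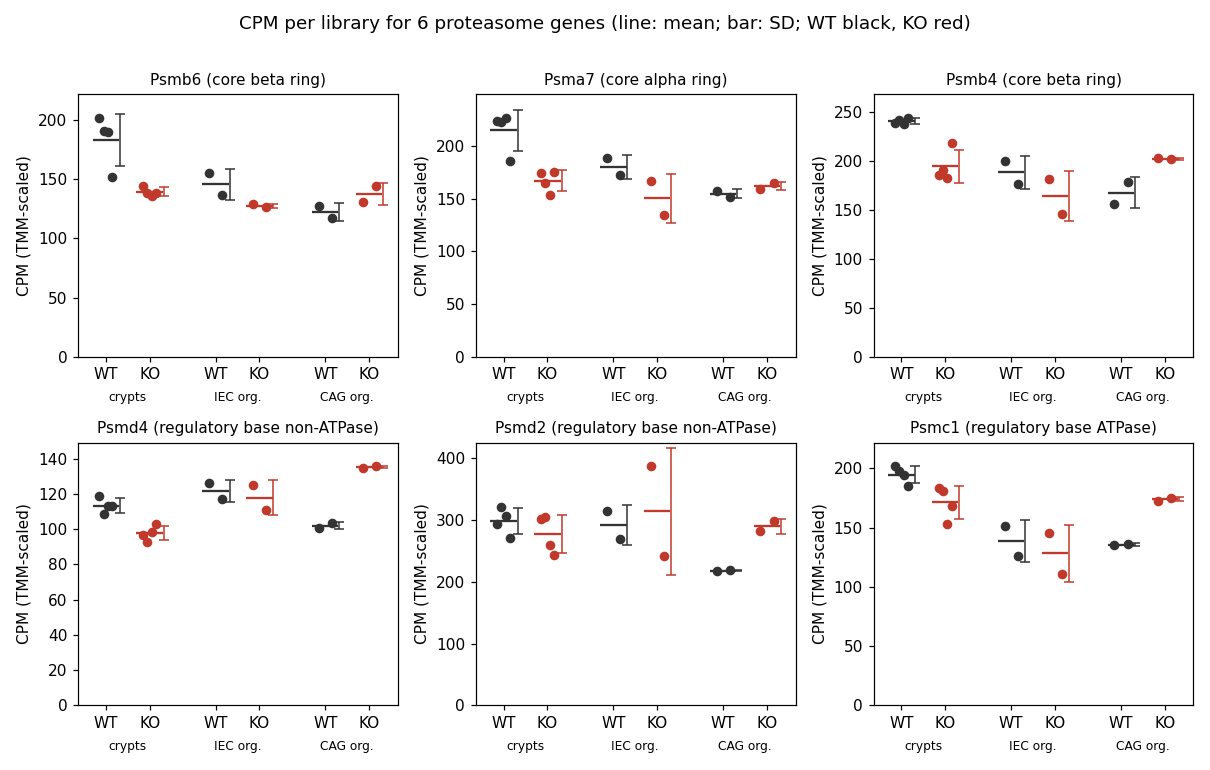
CPM (TMM-scaled, y axis from 0) of 3 core genes (Psmb6, Psma7, Psmb4) and 3 regulatory genes (Psmd4, Psmd2, Psmc1) in every library, WT in black and KO in red, with the group mean as a line and the SD as a bar. In crypts the KO libraries of Psmb6, Psma7, Psmb4, Psmd4 and Psmc1 lie below all WT libraries, while those of Psmd2 overlap them. In KO CAG organoids the KO libraries of every gene shown lie above both WT libraries.

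Of the 9 regulatory genes with CCGGAAG, 6 were called higher in KO CAG organoids and the median log2 fold change was 0.34. The 5 regulatory genes with a sequence but without the motif were all called higher, with a median of 0.27.

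The balance between the particles was read within each library as the ratio of the summed CPM of the 17 regulatory genes to that of the 14 core genes, a quantity that scaling between libraries cannot move. In crypts it was 1.127, 1.095, 1.109 and 1.074 in WT and 1.201, 1.201, 1.194 and 1.106 in KO. KO 4 lay within the WT range, and the other 3 KO libraries lay above it. In IEC organoids the ratio was 1.21 and 1.19 in WT and 1.42 and 1.25 in KO, and in CAG organoids 1.16 and 1.13 in WT and 1.30 and 1.32 in KO, without overlap in either. The ratio was higher on average in KO in each experiment, with a lower core sum in crypts and a higher regulatory sum in CAG organoids. In crypts the core sum was 2234 ± 83.2 CPM (SD, n = 4) in WT and 1876 ± 82.1 CPM in KO, and the regulatory sum was 2461 ± 118 and 2205 ± 106 CPM. In CAG organoids the core sum was 1641 ± 45.8 CPM (SD, n = 2) in WT and 1755 ± 60.9 CPM in KO, and the regulatory sum was 1884 ± 16.6 and 2300 ± 102 CPM. In IEC organoids the core sum was 1877 ± 143 CPM in WT and 1633 ± 258 CPM in KO, and the regulatory sum 2253 ± 202 and 2195 ± 534 CPM, so that the KO libraries were widely split. Among libraries of like mitochondrial ribosomal RNA, WT 1 gave 1.127 against 1.194 to 1.201 in KO 1 to KO 3, and WT 4 gave 1.07 against 1.11 in KO 4.

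Core and regulatory genes differ in length, with medians of 2126 and 2808 bases in the crypt table. Over all protein-coding genes within the length range of the core genes and within that of the regulatory genes, the median log2 fold changes were −0.09 and −0.03 in crypts, −0.06 and −0.03 in IEC organoids and 0.07 and 0.04 in CAG organoids (ranges chosen after seeing the data). In crypts and IEC organoids these medians lay in the same order as those of the particles (−0.25 and −0.17, and −0.19 and −0.05), and in CAG organoids in the opposite order. The part of length in the ratio was not tested.

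**Figure D3:**
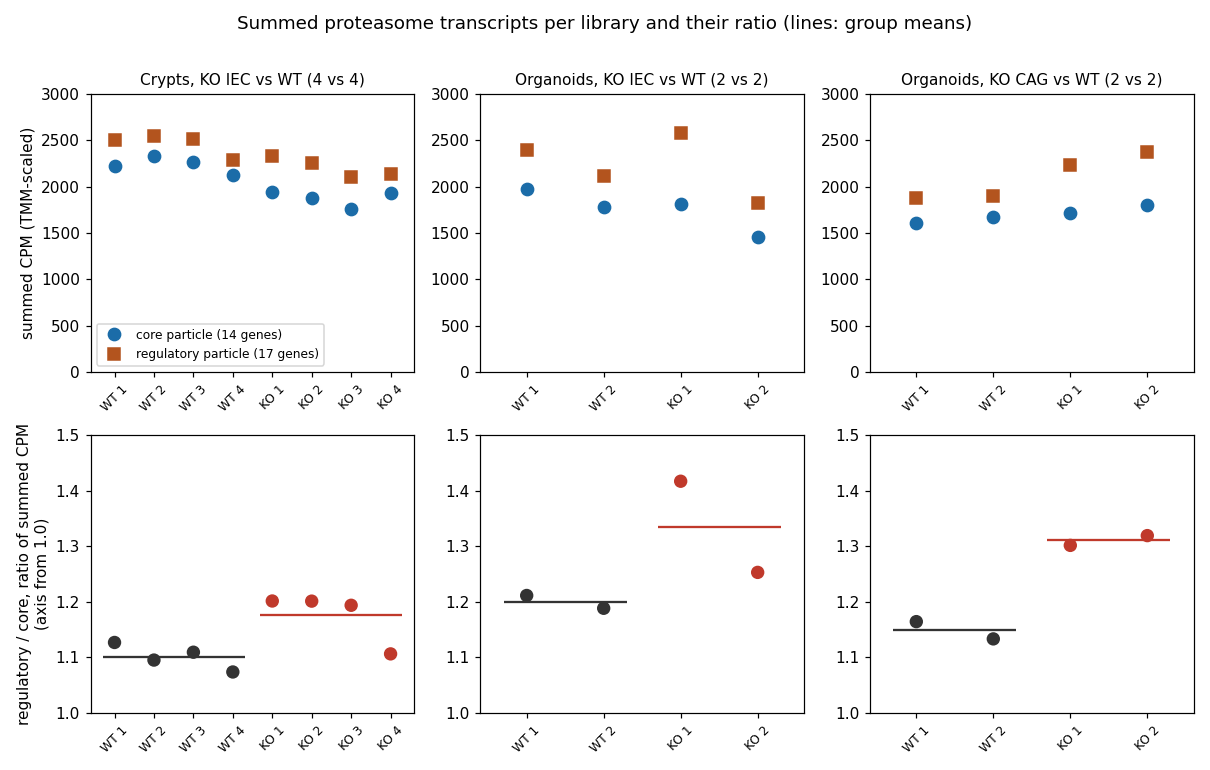
Upper row, summed CPM (TMM-scaled) of the 14 core genes (circles) and 17 regulatory genes (squares) in each library of the 3 experiments. Lower row, ratio of the regulatory to the core sum (axis from 1.0), WT in black, KO in red, lines for group means. KO ratios lie above the WT ratios in both organoid experiments and in 3 of 4 KO crypt libraries, while KO 4 at 1.106 falls within the WT crypt range.

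Whether the KO effect differed between experiments was tested by interaction in a fit of all 16 libraries (15585 genes). No proteasome gene was called in any of the 3 contrasts by edgeR, with 0.372% of all genes called for CAG organoids against crypts, 0.385% for CAG against IEC organoids and 0.00642% for IEC organoids against crypts. For CAG organoids against crypts, 7 core and 11 regulatory genes had an unadjusted p under 0.05, compared with 14.4% of all genes, and the median difference was 0.32 for core and 0.45 for regulatory genes. Psmd4 came nearest, with a difference of 0.61 (SE 0.12, adjusted p = 0.0501, edgeR). It was the single proteasome gene called when only the libraries of these 2 experiments were fitted (adjusted p = 0.0356, edgeR, alternative chosen after seeing the data), where 1.18% of all genes were called. For CAG against IEC organoids, 3 core and 2 regulatory genes had an unadjusted p under 0.05 (10.9% of all genes), and for IEC organoids against crypts 0 did (6.96%).

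Among 32 other genes of the ubiquitin-proteasome system, 9 of the 31 tested rose in KO CAG organoids and 0 fell by edgeR, compared with 18.1% of all genes higher and 13.4% lower. Regulatory subunits outside the name rule were part of this. Adrm1, a ubiquitin receptor of the base, rose from 86.7 ± 0.03 to 133 ± 5.38 CPM (SD, n = 2; log2 fold change 0.61, adjusted p = 3.98e-04), while the small lid subunit Sem1 gave 0.13 (adjusted p = 0.320). Of the alternative caps and their partners, the activator subunits Psme1 and Psme2 rose by 0.35 and 1.03 on the log2 scale (adjusted p = 0.0121 and 9.11e-04, edgeR), and Psme3, Psme4 and the inhibitor Psmf1 were not called.

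The immunoproteasome subunits replace the catalytic subunits after interferon. Psmb8 rose from 2.86 ± 0.38 to 10.96 ± 0.82 CPM (SD, n = 2; log2 fold change 1.92, adjusted p = 3.62e-04, edgeR), Psmb10 gave 0.31 (adjusted p = 0.0512, edgeR) and Psmb9 gave −0.21. Of the core assembly chaperones, Pomp rose by 0.46 on the log2 scale (adjusted p = 0.00230, edgeR), while Psmg1, Psmg2, Psmg3 and Psmg4 lay between −0.30 and −0.03 with none called.

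Ubb, which encodes a chain of ubiquitin units and responds to stress, rose by 0.58 on the log2 scale (adjusted p = 0.00355, edgeR). Rps27a, which encodes ubiquitin fused to a ribosomal protein, was not called. Nploc4, a cofactor of the segregase Vcp, rose by 0.56 and the ubiquitin shuttle Ubqln2 by 0.36 (adjusted p = 0.00160 and 0.0423, edgeR). Of the regulators of proteasome genes, Nfe2l2 rose from 225 ± 9.37 to 285 ± 13.9 CPM (SD, n = 2; log2 fold change 0.34, adjusted p = 0.0130, edgeR), and Nfe2l1, which is controlled mainly at the protein level, gave 0.14 (adjusted p = 0.201).

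In KO IEC crypts the same genes gave 1 call of 31, near the 2.66% of all genes called lower. Psmg2, a chaperone of alpha ring assembly, fell from 28.5 ± 1.36 to 19.6 ± 3.45 CPM (SD, n = 4; log2 fold change −0.54, adjusted p = 0.0499, edgeR). All 5 core assembly chaperones lay below 0 in crypts with a median of −0.43, Psmg4 and Psmg1 at −0.53 and −0.43 (adjusted p = 0.0626 and 0.0842, edgeR). In KO IEC organoids 0 of 32 were called by edgeR, and the chaperones had a median of −0.34, with Psmg2 at −0.52 and Psmg4 at −0.63. Nfe2l2 gave 0.48 in crypts (adjusted p = 0.0847, edgeR) and 0.49 in IEC organoids (adjusted p = 0.856, edgeR), and the protease Ddi2, which activates Nfe2l1, gave 0.44 and 0.55 there but −0.04 in CAG organoids.

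**Figure D4:**
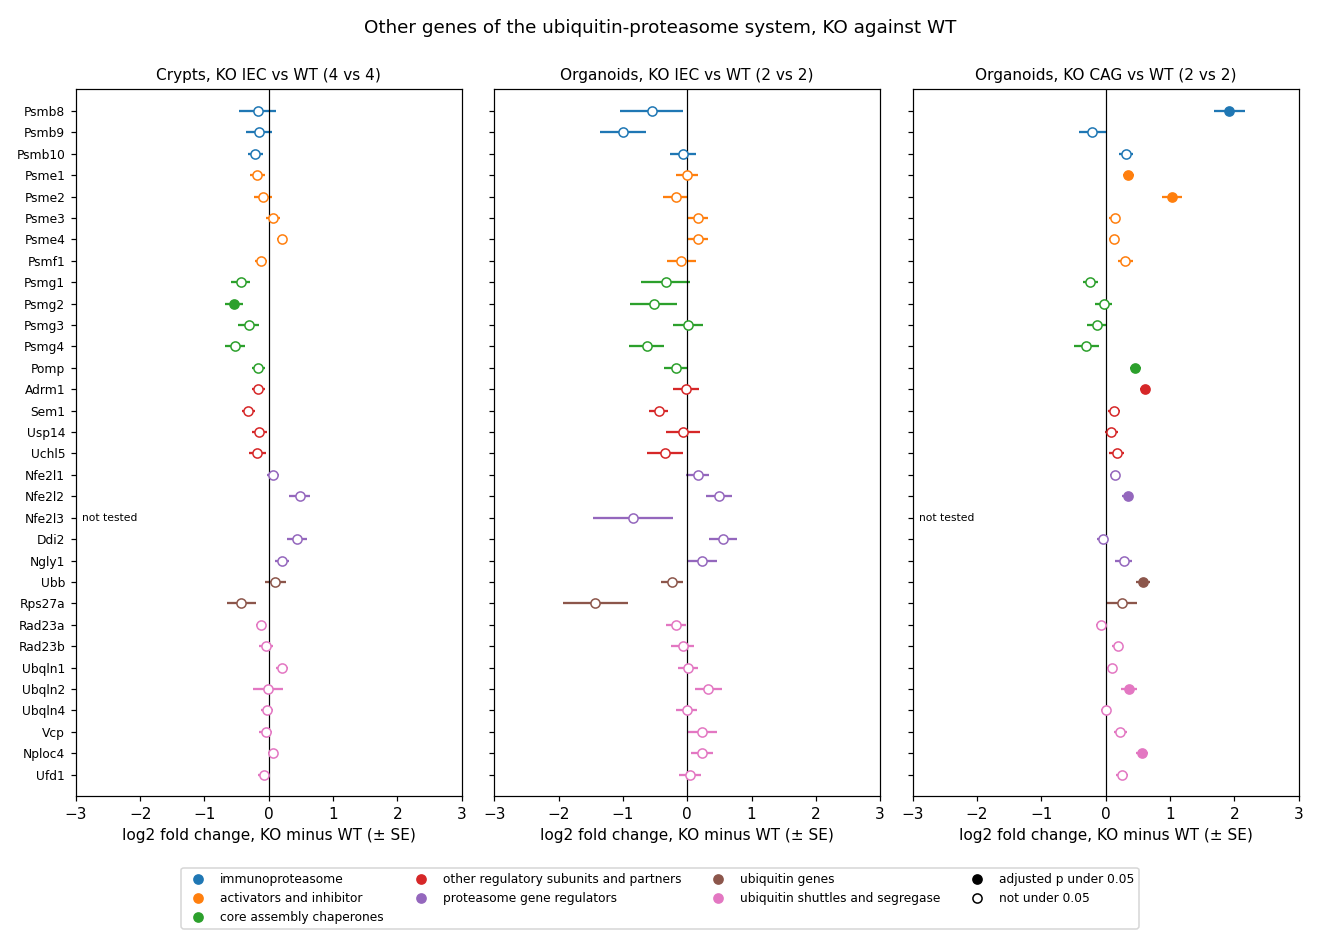
Log2 fold change (KO minus WT, with the SE) of 32 other genes of the ubiquitin-proteasome system, by group, in the 3 experiments. Filled points have an adjusted p under 0.05 by edgeR. Filled points are Psmg2 left of 0 in crypts and 9 genes right of 0 in KO CAG organoids, with Psmb8 at 1.92 farthest out, and Nfe2l3 was removed by the filter in crypts and CAG organoids.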

How the data were processed

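RNA-seq counts of 16 libraries were used. For each experiment the authors deposited 1 table of unnormalized read counts by gene. The submitters' processing notes name HISAT2 2.0.5 and featureCounts 1.5.0-p3. The genome build and strand use are not given in the sources used here. Start and end of 31 of 37 genes equal those of GENCODE M21. Gene lengths are the deposited lengths in bases, from which TPM was computed.

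Groups came from the sample labels and the series design. Each experiment was fitted alone, KO against WT, with filterByExpr, TMM scaling and the quasi-likelihood test of edgeR 4.0.16 (R 4.3.3), adjusted by Benjamini-Hochberg over all genes tested. A gene was called at an adjusted p under 0.05. Dividing the size of a log2 fold change by the root of its F statistic gave the SE. CPM used effective (TMM) library sizes, and mitochondrial ribosomal RNA the plain totals. Single genes were also compared by exact permutation, whose smallest p is 0.333 for 2 against 2. Alternatives were DESeq2 1.42.0, other scalings and filters, a replicate block, the mitochondrial ribosomal RNA class as covariate, all 16 libraries together and each library left out. The code was tested on simulated data.

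Named were the 2 genes with the smallest p per particle and experiment, every called gene, Psmb5, Psmb6, Psmb7, Psmd4 and Psmd14, the highest and lowest per length, and related genes that were called. Other genes given with values (Psmb1, Psmc6, Psmd6, Psmd7, Psmd12, the base chaperones and related genes that were not called) were added after their values were seen. The genes and lists were chosen with earlier results of these data known. No 2 libraries of a group agreed within counting error. Some items of the related lists are not reported here.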

Additional observations from a re-analysis of the deposited data

Results flagged for a closer look

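Of 76 groups of 4 crypt values (35 genes and the sums and ratio of the particles), 9 had a library far from the other 3 by Dixon's test at the 95% level. Chance flags about 1 group in 20 if groups are independent. These were not, since they share the crypt libraries and the sums and ratio hold the same genes. Of the 9, 4 were WT 4 and 4 were KO 4, the libraries of middle mitochondrial ribosomal RNA content. With the class of that content as a covariate, the crypt medians were −0.204 for core and −0.157 for regulatory genes.

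WT 4 was low in Psma7 (185.7 CPM against 223 to 227), Psmb5 (104.3 against 111.1 to 112.3) and Psmd9 (24.0 against 35.6 to 37.5), and high in Psmb7 (120.2 against 84.8 to 88.3). KO 4 was low in Psma1 (145.6 CPM against 165.7 to 168.4) and Psmd3 (175.0 against 203.9 to 207.8), and high in Psmd13 (121.9 against 100.4 to 102.3). Its ratio of regulatory to core sums was 1.106 against 1.194 to 1.201 in the other KO crypt libraries. KO 1 was high in Psmc3ip (6.03 CPM against 2.98 to 3.22).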

How the results depend on the processing

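Directions of the medians held in crypts and CAG organoids under every alternative run, and in IEC organoids for core genes, while the regulatory median there turned above 0 without WT 1 (0.028) and without KO 2 (0.163). Core genes called lower in crypts, 0 in the main test, numbered 1 with at least 10 counts in every library, 5 by DESeq2 and 3 with all 16 libraries in 1 fit (3.79%, 7.51% and 3.76% of all genes lower), and regulatory genes 1 by DESeq2. Scaled by library size only, the crypt medians were −0.335 for core and −0.254 for regulatory genes while that of all genes was −0.095, and within WT 4 and KO 4 the core median was −0.158. In CAG organoids, core genes called higher numbered 0 by library size only, DESeq2, all 16 libraries or with a fold of at least 2 required, and regulatory genes 6 by DESeq2, 1 with all 16 libraries and 0 with that fold (12.5%, 1.96% and 6.36% of all genes higher). A single regulatory gene was called in the difference between CAG organoids and crypts under some alternatives (1 in each). They were size factors of DESeq2, at least 10 counts in every library, and a fit of only the 2 experiments. In the last, 1.18% of all genes were called, and the share in the others is not given here.

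Leaving out each library in turn gave 0 to 3 core and 0 to 1 regulatory genes lower in crypts (3 without WT 4 or KO 1, 1 without KO 1, where 4.99% and 7.87% of all genes were lower, while calls over all genes ranged from 2 to 2468), 0 to 2 and 0 to 1 lower in IEC organoids (0% to 9.16% of all genes), and 0 to 4 core and 0 to 15 regulatory genes higher and 0 to 1 core genes lower in CAG organoids (11.8% to 19.9% of all genes higher). The medians ranged from −0.403 to −0.056 (core) and −0.311 to 0.163 (regulatory) in IEC organoids, from −0.276 to −0.195 and −0.186 to −0.123 in crypts, and from 0.073 to 0.126 and 0.242 to 0.320 in CAG organoids. In the interactions, the number of genes called changed with the library left out for CAG organoids against crypts and against IEC organoids. The share of all genes called in these fits is not given here, so no count is read from them. Signs reversed for Psmb7 in crypts without WT 4 (0.0027, range from −0.262) and in IEC organoids without KO 2 for Psmb7 (0.020, range from −0.570), Psmd4 (0.040, range from −0.137), Psmd7 (0.129, range from −0.694) and Psmd14 (0.163, range from −0.548), and without WT 1 for Psmd4 (0.0092). With 1 library left in a group, that library was assumed to vary like the other groups. Over all alternatives for named genes, 356 values kept their direction and side of the threshold, 72 kept the direction but were no longer called, 16 became called and 6 reversed. The cause was not tested.

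Replicate numbers do not pair the libraries by the sources. The deviations of same-numbered KO and WT libraries correlated at −0.395 to 0.434 in crypts, where 2 of 4 numbers correlated best with themselves, at 0.342 in IEC and at 0.067 in CAG organoids. With a replicate block, 14 regulatory and 2 core genes were called higher in CAG organoids, where 20.3% of all genes were called higher. In crypts and IEC organoids 0 were called with the block. Calls over all genes in crypts went from 934 to 4, and the crypt medians were −0.252 for core and −0.164 for regulatory genes. The organoid experiments rest on 2 libraries a group, for which an exact permutation p cannot go below 0.333.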
